A study of Mus musculus with 29 samples.

Results

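Natural killer (NK) cells of the mouse brain after stroke were taken as the brain cells that the authors' deposited annotation codes as NK at its coarser level. They numbered 528 of 55268 brain cells, and the whole series held 106977 cells of brain and blood. Of the 528, 484 came from young and 44 from aged mice. The cells were profiled by Drop-seq, in which single cells share a droplet with a barcoded bead and transcripts are counted per cell. All mice were C57BL/6J, and no genetic change is named in the labels.

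In young males (8 to 10 weeks old), 3 brain groups of 4 libraries each were collected: 2 days after a sham operation, 2 days after stroke and 14 days after stroke. The aged brains (17 to 20 months) comprised a male and a female sham library from day 2, 1 male and 2 female stroke libraries from that day, and a female stroke library from day 14. Each brain library pooled 4 to 5 hemispheres, was digested with papain in the presence of inhibitors of transcription and of neuronal and purinergic receptors, and was sorted for leukocytes with high CD45, microglia and endothelial cells. Blood leukocytes of young males, pooled from 2 mice per library and freed of red cells, gave 4 sham, 4 day 2 and 3 day 14 libraries with 1549 NK cells. No sham library of day 14 is among the samples used here, so time after surgery and stroke at day 14 cannot be told apart, and the sort sets which cells enter every brain share.

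NK cells are innate lymphocytes that kill target cells with granules of perforin and granzymes and secrete interferon gamma and chemokines. Activating receptors such as NKp46 and NKG2D and inhibitory receptors of the Ly49 and CD94/NKG2A families set whether they respond. In the brain they are few under resting conditions and are known to enter injured tissue with other leukocytes.

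Young brain libraries held 9 to 21 NK cells in sham, 3 to 31 at day 2 and 8 to 135 at day 14. Counts summed over the NK cells of a library were compared where it held at least 10 of them, which left 3 libraries per brain group with 5176 to 111920 counts each. The left-out libraries were sham replicate 4 with 9 cells, day 2 replicate 4 with 3 and day 14 replicate 1 with 8. The labels do not say whether replicates came from separate animals on separate days, so p values measure the spread between these libraries. No barcode of an NK cell was shared between brain libraries. Levels are given as CPM, a gene's counts in the NK cells of a library scaled to the same total for every library.

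Pooled over the young brain NK cells, of which 349 of 484 came from day 14, the label was borne by the markers named here. Nkg7, a granule membrane protein gene, stood at 2906 CPM in the pooled young brain NK cells and at 1012 CPM in T cells, the next of 13 annotated types. Klrd1, which encodes the CD94 receptor chain, stood at 1149 CPM, with dendritic cells next at 461 CPM. The NKp46 gene Ncr1 was at 438 CPM against 71.9 CPM in the next type, and Klrb1c, the NK1.1 gene, at 1031 CPM against 30.3 CPM in T cells. These levels describe the annotation, which was made on the same cells, and were not tested. The NK marker genes Eomes, Tbx21 and Styk1 had no count in the sham libraries used, and Styk1 had none at day 2.

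Markers of other cells were looked for in the same libraries. Among 14 T cell markers, Cd4, Cd5 and Cd6 had no count in young brain NK cells and Cd3e stood at 2.79 CPM, against 461 CPM in T cells. Trbc1 was at 818 CPM and Trbc2 at 352 CPM, so that 33.3% to 64.5% of NK cells per library used carried a count of a T cell receptor or CD3 gene. The summed T cell markers ran from 1517 to 2224 CPM in sham, 1736 to 2122 at day 2 and 984 to 1701 at day 14. The 7 markers of group 1 innate lymphoid cells (ILC1), close relatives of NK cells, summed to 975 ± 264 CPM in sham, 667 ± 614 at day 2 and 491 ± 72.3 at day 14 (SD, n = 3 each), and to 102 to 155 CPM on average in the blood groups. Microglia markers summed to 310 ± 281 CPM in sham, 375 ± 297 at day 2 and 24.1 ± 31.8 at day 14, with P2ry12 at 0 in the libraries used, and neutrophil markers to 224 ± 77.4, 128 ± 222 and 3.07 ± 5.32 CPM. Monocyte or macrophage markers summed to 1363 ± 547, 2117 ± 944 and 1751 ± 358 CPM, and 1 of them, Lyz2, was at 98.2, 302 and 2.02 CPM pooled over all libraries. B cell markers were at 0 in sham and at day 2. Endothelial markers summed to 36.4 ± 63.0 CPM in sham, 73.6 ± 96.9 at day 2 and 192 ± 92.3 at day 14, and dendritic cell markers to 0, 27.5 ± 47.6 and 78.8 ± 84.1 CPM. Markers of group 2 innate lymphoid cells summed to 50.2 ± 86.9, 252 ± 70.9 and 75.6 ± 3.84 CPM. Their part in the differences below was not tested.

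**Figure D1:**
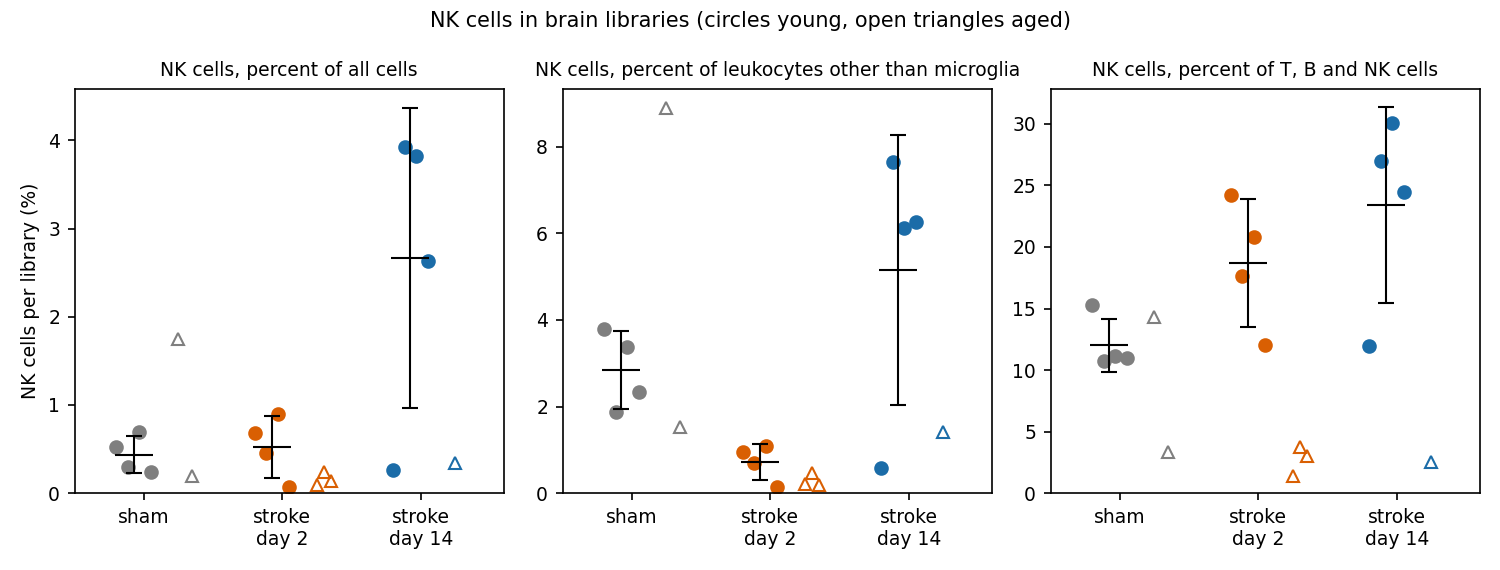
NK cells per brain library (y axis, percent) of all cells (left), of leukocytes other than microglia (middle) and of T, B and NK cells together (right), by group; circles are young libraries with mean and SD (n = 4), open triangles are aged libraries. Of the young day 14 libraries, 3 lie between 2.64% and 3.93% of all cells and the other lies at 0.268%.

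By the fitted model, NK cells made up more of all sorted young brain cells at day 14 than in sham. How day 14 and day 2 compared with sham depended on which cells NK cells were counted among. Of all sorted cells, NK cells were 0.519%, 0.297%, 0.689% and 0.237% of the sham libraries. At day 2 they were 0.678%, 0.450%, 0.897% and 0.0668%, and at day 14 0.268%, 3.93%, 3.83% and 2.64%. The first 2 groups overlapped, and 1 day 14 library lay within their range. The day 14 share was higher than sham by 2.62 ± 0.73 on the log2 scale (SE; edgeR quasi-likelihood test, adjusted p = 0.00596 over 12 cell types) and higher than day 2 by 2.35 ± 0.72 (adjusted p = 0.0211), where 33.3% and 16.7% of cell types passed the test. The exact two-sided permutation test of the same shares gave p = 0.114 for both, so these calls rest on the fitted model. From sham to day 2 the difference was 0.26 ± 0.72 (edgeR, adjusted p = 0.783), with 41.7% of cell types passing. Without day 14 replicate 1 the shares of day 14 lay above all others, and the exact permutation test gave p = 0.0571 for both comparisons, the smallest that 4 against 3 allows. Among cells of at least 800 counts neither call held (edgeR, adjusted p = 0.0771 against sham and 0.0744 against day 2), and the adjusted p of day 14 against day 2 was 0.0572 to 0.0951 when replicate 1 or 4 of day 2, or any of replicates 2 to 4 of day 14, was left out.

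Among lymphocytes alone, the NK share was higher already at day 2. NK cells were 15.3%, 10.8%, 11.1% and 11% of T, B and NK cells in the sham libraries. The shares at day 2 were 24.2%, 17.6%, 20.8% and 12%, and at day 14 they were 11.9%, 27.0%, 30.1% and 24.5%. The lowest library of each stroke group lay within the sham range and the other 3 lay above it. Over all libraries there were 62 NK and 222 T cells in sham, and 73 and 215 at day 2. T, B and NK cells together numbered 118, 130, 189 and 82 in the sham libraries and 99, 85, 149 and 25 at day 2. The higher share at day 2 thus went with fewer B cells in the total. The share was higher at day 2 than in sham by 0.76 ± 0.31 (edgeR, log2, adjusted p = 0.0230 over 3 types) and higher at day 14 than in sham by 1.10 ± 0.24 (edgeR, adjusted p = 1.43e-04); in both comparisons 100% of the lymphocyte types passed, since shares of 3 types move against each other. The exact two-sided permutation test gave p = 0.0571 for each, and the groups overlapped, so these calls too rest on the fitted model. Day 14 and day 2 differed by 0.34 ± 0.24 (edgeR, adjusted p = 0.246; 33.3% of types passed). Among leukocytes other than microglia, which include the incoming myeloid cells, the NK share instead fell at day 2, by 1.95 on the log2 scale from 2.84% ± 0.895 to 0.716% ± 0.409 (SD, n = 4; edgeR, adjusted p = 0.0139; 85.7% of 7 types passed; exact permutation p = 0.0286, the smallest that 4 against 4 allows). It stood at 5.15% ± 3.12 at day 14, which differed from day 2 by the fitted model (edgeR, adjusted p = 0.00271) but overlapped with it (exact permutation p = 0.114), and not detectably from sham (adjusted p = 0.234), with 71.4% of types passing in each. In blood, the NK share of all cells was 2.43% ± 0.532 in sham (n = 4), 1.90% ± 0.671 at day 2 (n = 4) and 4.96% ± 0.736 at day 14 (n = 3; exact permutation p = 0.0571 against sham, the smallest that 4 against 3 allows).

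In aged brains the NK share could not be shown to differ at day 2, since 3 stroke libraries against 2 sham libraries allow no p under 0.05. NK cells were 1.75% of the male and 0.196% of the female sham library at day 2. After stroke they were 0.0872% of the male library and 0.237% and 0.136% of the female libraries at day 2, and 0.341% of the female library at day 14. The day 2 means were 0.153% ± 0.0762 (SD, n = 3) after stroke and 0.973% ± 1.10 (SD, n = 2) in sham (exact permutation test, two-sided, p = 0.400; the smallest p of 3 against 2 is 0.2). The difference of -0.819 percentage points rests on the male sham library, without which it was -0.0422. Of leukocytes other than microglia, NK cells were 0.281% ± 0.15 (SD, n = 3) after stroke and 5.20% ± 5.21 (SD, n = 2) in sham, with every stroke library below both sham libraries (exact permutation test, two-sided, p = 0.2, the smallest possible). That difference was -4.92 percentage points, and -1.23 without the male sham library.

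**Figure D2:**
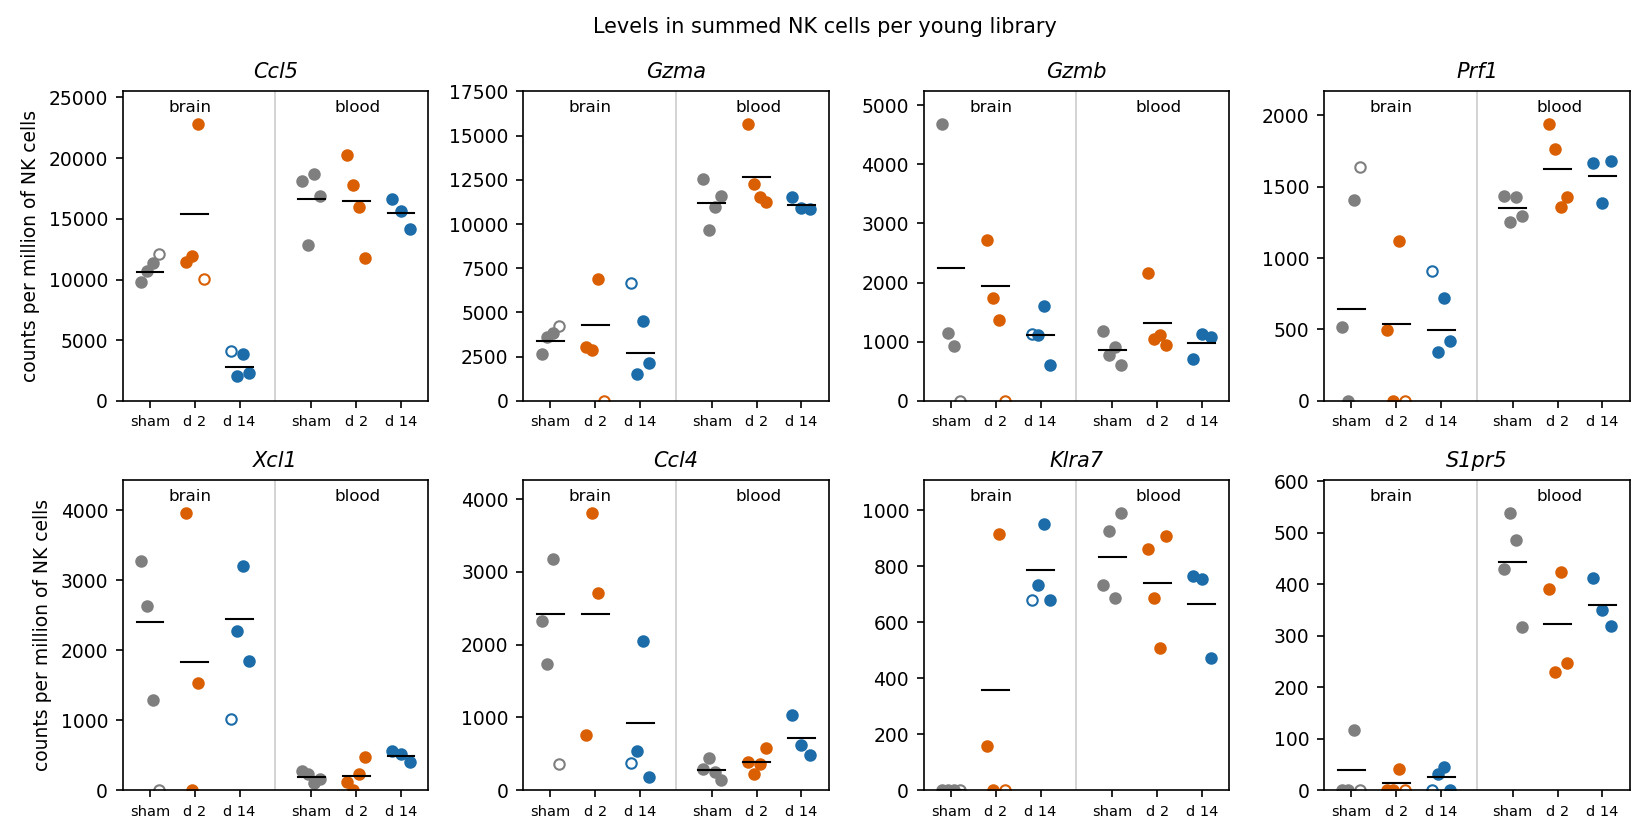
Level of 8 genes in the summed NK cells of each young library (y axes, CPM, linear), in brain (left of each panel) and blood (right) by group; open circles are libraries under 10 NK cells, bars are means of the filled circles. The day 14 brain libraries lie at 2091 to 4128 CPM for Ccl5, below every other library shown; the day 2 library of 3 cells lies above the axis for Xcl1 (26411 CPM) and Ccl4 (24109 CPM).

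Within brain NK cells, Ccl5 was lower at day 14 than at day 2. It encodes a chemokine that draws T cells, monocytes and other leukocytes and that NK cells store in quantity. Its level was 9794, 10716, 11334 and 12132 CPM in the 4 sham libraries. At day 2 it was 11418, 11956, 22834 and 10042 CPM, and at day 14 it was 4128, 2091, 3905 and 2308 CPM. All 4 day 14 libraries lay below all 8 others. Over the libraries with at least 10 NK cells, Ccl5 was lower at day 14 than at day 2 by a log2 change of -2.43 ± 0.35 (SE, edgeR quasi-likelihood test, adjusted p = 0.0188), the 1 call among the 292 genes that passed the filter on low counts (0.342%). Against sham the log2 change was -1.82 ± 0.34 with an adjusted p of 0.139 (edgeR).

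The Ccl5 call against day 2 depended on the libraries and settings of the fit although the values did not overlap. It was lost without the filter on low counts (-1.70, adjusted p = 0.615), with a minimum of 20 cells (-2.41, 0.857), without NK cells that carried a T cell receptor or CD3 count (-2.67, 0.268), without cells of over 2.5 times the median counts (-2.23, 0.0787) and with the 2 compared groups alone (-2.34, 0.172). Leaving out any of the 3 sham libraries, day 2 replicate 1 or 3, or day 14 replicate 2 or 4 raised the adjusted p to 0.0555 to 0.326, with log2 changes from -2.60 to -1.99. Libraries also differed in mitochondrial content, and were split, after the data were seen, by the median over all their cells, not over NK cells alone. Where that median was under 1% mitochondrial counts, Ccl5 was at 9794 CPM in sham, 11418 and 11956 at day 2, and 4128 and 2091 at day 14. In the remaining libraries it was at 10716 to 12132 CPM in sham, 10042 and 22834 at day 2, and 2308 and 3905 at day 14. With this split as a term in the model, also added after the data were seen, the changes were called at -2.56 against day 2 (edgeR, adjusted p = 0.00301) and -1.84 against sham (adjusted p = 0.0262).

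The share of NK cells with a Ccl5 count was also lower at day 14. Of the NK cells, 83.9% had a Ccl5 count in sham, 84.9% at day 2 and 52.1% at day 14, at a median of 401, 539 and 624 counts per cell. Thinned to 300 counts per cell, which left out 23, 14 and 57 shallower cells, the shares were 66.7% (95% exact binomial interval 49.8% to 80.9%), 79.7% (67.2% to 89.0%) and 43.5% (37.7% to 49.4%). Intervals cover counting error only, and cells of a library are not replicates. Among endothelial cells of the same libraries, 0.225%, 0.602% and 0% had a Ccl5 count at medians of 403, 571 and 602 counts. The single aged library of day 14, with 9 NK cells, went against the young ones at 16862 CPM, whereas the aged sham libraries stood at 4674 and 7422 CPM and the aged day 2 libraries at 0, 5332 and 3034 CPM from 1, 6 and 2 cells.

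**Figure D3:**
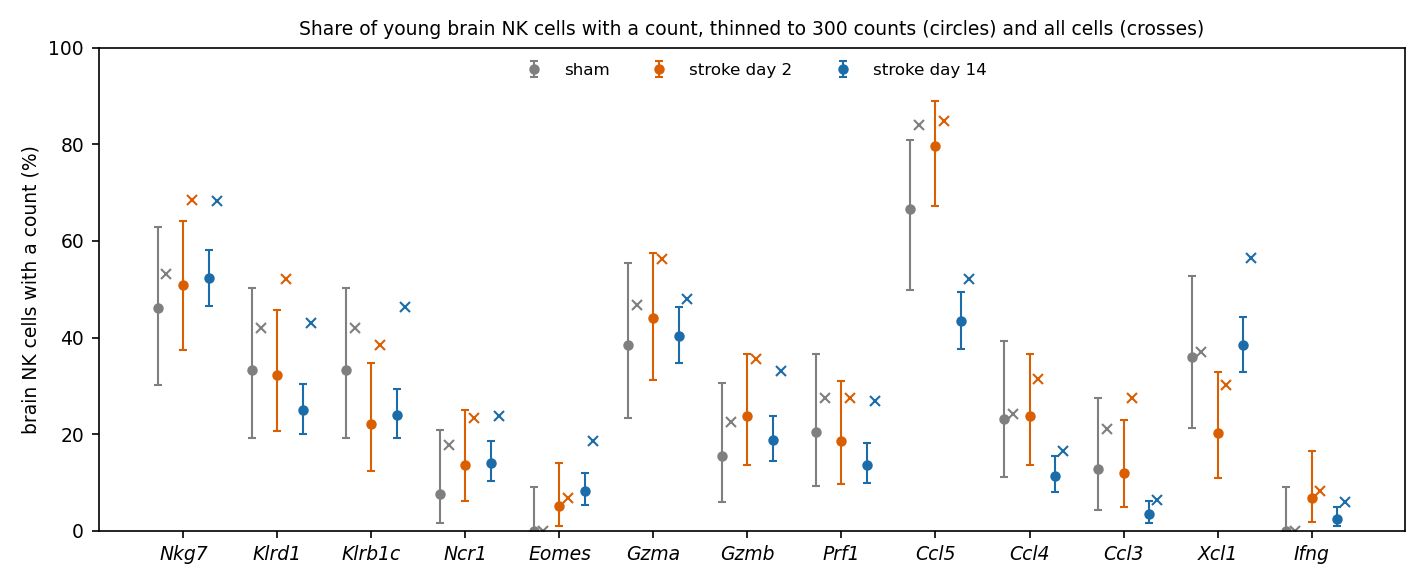
Share of young brain NK cells with at least 1 count of each gene (y axis, percent) by group, after thinning each cell to 300 counts (circles with 95% exact binomial intervals) and in all cells without thinning (crosses). The thinned Ccl5 share is 43.5% at day 14 against 66.7% in sham and 79.7% at day 2.

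The remaining genes that define killing and signalling showed no change past the test between the brain groups. No gene of 292 was called between day 2 and sham by edgeR (0%; 13 genes passed 0.05 before adjustment, and DESeq2 called 0) or between day 14 and sham (0%; 8 before adjustment and 2 by DESeq2, Ccl5 and Klra7). Gzma, a granule protease, was at 3372 ± 628 CPM in sham, 4271 ± 2271 at day 2 and 2732 ± 1582 at day 14 (SD, n = 3 each). Gzmb, another granule protease, was at 2254 ± 2108, 1944 ± 699 and 1107 ± 502 CPM, and the pore former Prf1 at 640 ± 709, 539 ± 562 and 496 ± 199 CPM. None of these differences passed the test. Of 16 cytotoxic granule and death ligand genes 9 were tested, with a median log2 change of 0.06 from sham to day 2 and -0.46 from day 2 to day 14, where the median of all genes tested was -0.02 and 0.09.

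The chemokine genes Ccl3 and Ccl4, whose products attract macrophages and T cells, had lower means at day 14, without a call. Pooled over the young groups, microglia held more of both than NK cells, at 1189 against 352 CPM for Ccl3 and 1977 against 1355 CPM for Ccl4. Most of these pooled NK cells came from day 14. The NK means of Ccl4 in sham and at day 2, given below, lay above that microglia level, and those of Ccl3 below it. The microglia markers given above were lower in the NK cells at day 14 too, and their part was not tested. Ccl4 was at 2417 ± 724 CPM in sham, 2425 ± 1548 at day 2 and 924 ± 994 at day 14, a log2 change of -1.32 ± 0.85 from day 2 (edgeR, adjusted p = 1.000). Ccl3 was at 778 ± 601, 714 ± 217 and 212 ± 295 CPM (-1.62 ± 1.10, edgeR, adjusted p = 1.000). For Xcl1, the chemokine that attracts XCR1-bearing dendritic cells, the values were 2399 ± 1012, 1832 ± 1996 and 2443 ± 692 CPM. The 4 tested cytokine and chemokine genes had a median of -1.47 from day 2 to day 14, with 1 call, Ccl5. Over all genes tested the median was 0.09, with 0.342% called. Ifng, which encodes interferon gamma, was too low to be tested: it had 0 counts in the 62 sham cells, 12 at day 2 and 25 at day 14.

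Receptor and identity genes had no call either. Nkg7 was at 3588 ± 474 CPM in sham, 3512 ± 428 at day 2 and 2598 ± 994 at day 14, and Klrd1 at 1048 ± 421, 1483 ± 473 and 1009 ± 357 CPM. The NKG2D gene Klrk1 was at 1434 ± 500, 1014 ± 285 and 1050 ± 440 CPM, and Klre1, a partner of inhibitory and activating lectin receptors, at 1011 ± 348, 825 ± 333 and 885 ± 149 CPM. Klrb1c was at 1382 ± 540, 1239 ± 639 and 1038 ± 395 CPM, and Ncr1 at 461 ± 469, 440 ± 402 and 388 ± 196 CPM. None of these differences exceeded the spread between libraries by the test. Of 16 activating receptor and adaptor genes 6 were tested, and of 18 genes listed as inhibitory receptors 5. Neither list had a call by edgeR between the brain groups. The second list mixes both kinds, since it also holds Klra4 and Klra8, genes of the activating receptors Ly49D and Ly49H.

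A few genes had no count in sham and were present later, and the depth of the sham cells limits what this shows. Gzmc, a granzyme gene, had 0 counts in the 4 sham and 4 day 2 libraries. At day 14 it had 0, 47, 77 and 105 counts, which is 478, 684 and 1702 CPM in the 3 libraries with counts. It failed the filter on low counts. Pooled over the libraries used, the level at day 14 was at least 7.83-fold that in sham and at least 12.8-fold that at day 2, with the empty group set to 3 counts in all. Without the filter, Gzmc was called against both (edgeR, adjusted p = 1.60e-05 and 1.65e-06). In those fits the whole distribution lay toward day 14, with a median log2 change over 13040 genes of 1.25 against sham and 1.16 against day 2, where the filtered fits had 0.03 and 0.09, and all 8 calls against sham were higher. The aged libraries were not free of it, with 3 and 9 counts in sham, 0, 4 and 0 at day 2, and 4 at day 14.

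Klra7, which encodes the inhibitory receptor Ly49G2, had 0 counts in the 4 sham libraries. It had 3, 0, 22 and 0 counts at day 2 and 6, 72, 106 and 42 at day 14. The level at day 14 was at least 7.55-fold that in sham, and the adjusted p was 0.427 (edgeR), or 3.86e-05 in the unfiltered fit with its shifted median. Eomes, a transcription factor that NK cells need and ILC1 lack, had 0 counts in sham, 9 at day 2, all in 1 library, and 82 in the 3 day 14 libraries used, at least 2.8-fold the sham level, with an adjusted p of 0.0471 in the unfiltered fit. Tbx21, which encodes T-bet, likewise had 0 counts in sham. A count of 0 in the 3 sham libraries allows up to 107 CPM. Car2, a carbonic anhydrase gene, was at 132 ± 119 CPM in sham, 735 ± 180 at day 2 and 795 ± 259 at day 14, with no overlap between sham and either stroke group and no call (edgeR, adjusted p = 0.877 and 0.427). In the unfiltered fit Car2 was called at day 14 against sham (3.52, adjusted p = 0.0450).

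Other genes with the smallest p values were not called and are given as values. From sham to day 2, Srgn, the proteoglycan that packs granules, went from 1334 ± 567 to 2506 ± 562 CPM, and Serpinb6b, a protease inhibitor gene, from 646 ± 397 to 1545 ± 620 CPM. From day 2 to day 14, Ifngr1, a chain of the interferon gamma receptor, went from 2238 ± 563 to 1085 ± 235 CPM, and the ferritin gene Fth1 from 2985 ± 397 to 1576 ± 377 CPM. Another cell type of these brains holds Fth1 at over 10 times the NK level, and the microglia and neutrophil markers given above were lower at day 14 as well. Msn, which links membrane to cytoskeleton, was at 820 ± 47.3 CPM in sham and 340 ± 60.2 CPM at day 14.

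**Figure D4:**
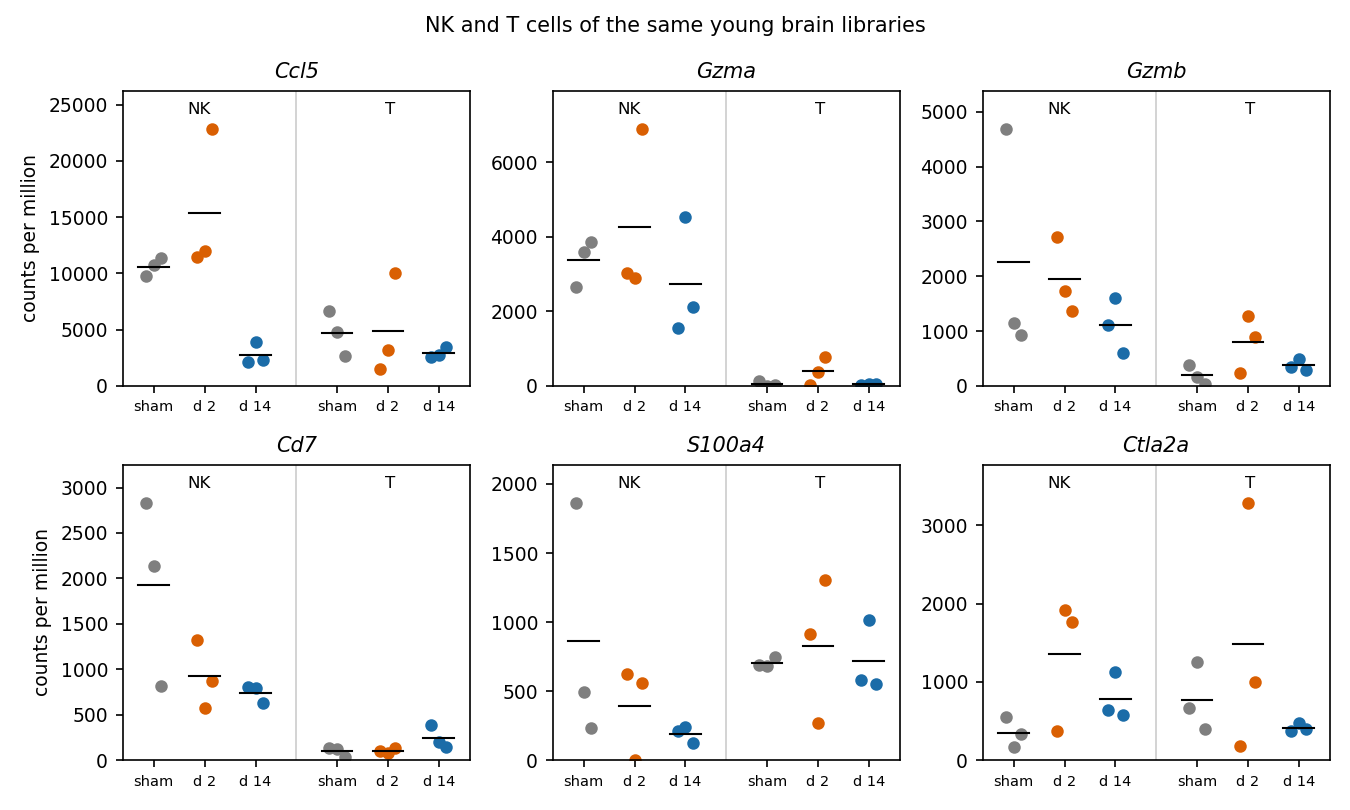
Level of 6 genes (y axes, CPM, linear) in the NK cells (left of each panel) and T cells (right) of the same 9 young brain libraries, by group; bars are means. At day 14 Ccl5 lies at 2091 to 3905 CPM in NK cells and at 2533 to 3477 CPM in T cells, within the range of the other T cell values.

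The lower Ccl5 level was set against T cells of the same libraries, the lymphocytes most like NK cells. T cells had 6639, 4758 and 2645 CPM of Ccl5 in sham, 1472, 3227 and 10017 CPM at day 2, and 2533, 2761 and 3477 CPM at day 14. The day 14 values of T cells lay within the range of the other groups. The change from day 2 to day 14 was lower in NK than in T cells by a log2 difference of -1.80 ± 0.24 (SE; edgeR with the library as a term, adjusted p = 5.28e-07), 1 of 3 calls among 781 genes (0.384%). For the change from sham to day 14 the difference was -1.11 ± 0.26 (edgeR, adjusted p = 0.0110), 1 of 16 calls (2.05%), and without sham replicate 3 it was -0.63 (adjusted p = 0.221). With DESeq2 the first difference was -2.11 (adjusted p = 0.0416) and the second -1.31, which was not called (adjusted p = 0.106). Both comparisons share the day 14 libraries, and without the library term neither held any call. Single libraries moved both counts: the 3 calls became 7 without sham replicate 1 or 3 and 5 without day 2 replicate 3, and the 16 calls became 26 without sham replicate 1 and 25 without day 2 replicate 2, with 5 to 8 without sham replicate 2 or 3 or any day 14 library.

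The other differences between NK and T cells were mostly calls that 1 library decided, or ribosomal genes. In T cells Gzma was at 29.4, 375 and 769 CPM at day 2, from 1, 10 and 57 counts. At day 14 it was at 27.7, 55.8 and 58.3 CPM, from 6, 12 and 9 counts. Its change from day 2 to day 14 differed between NK and T cells by 2.37 ± 0.43 (edgeR, adjusted p = 4.13e-04). Without day 2 replicate 3 that difference was 1.80 with an adjusted p of 0.316, and with DESeq2 it was 1.85 with an adjusted p of 0.998. From sham to day 14, Gzmb differed by -1.91 ± 0.54 (edgeR, adjusted p = 0.0447) and was lost without sham replicate 1, at -1.46 (adjusted p = 0.487), without sham replicate 3 (0.0520) and without day 2 replicate 2 (0.0503).

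Cd7, an immunoglobulin family receptor gene of NK and T cells, was at 2827, 2135 and 819 CPM in NK cells of sham and at 802, 789 and 630 CPM at day 14. In T cells it was at 138, 121 and 37.2 CPM in sham, from 4, 3 and 1 counts, and 388, 195 and 149 CPM at day 14. The difference of the changes was -2.53 ± 0.54 (edgeR, adjusted p = 0.00491), and it was not called without sham replicate 1 (-2.16, adjusted p = 0.145) or day 14 replicate 2 (-2.04, 0.0855). S100a4 and S100a6, calcium-binding protein genes, differed by -2.18 ± 0.50 and -1.60 ± 0.39, and without sham replicate 1 the differences were -0.41 (adjusted p = 0.901) and -0.84 (0.686). The S100a6 call was also lost without sham replicate 3 or any of the 3 day 14 libraries (0.0528 to 0.0898). Ctla2a, a cysteine protease inhibitor gene, differed by 1.94 ± 0.55, and not past the test without sham replicate 2 (1.35) or day 14 replicate 3 (1.71).

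Of the 11 genes with a higher change in NK cells from sham to day 14, 10 encode ribosomal proteins, an Eef1 elongation factor or the ribosome-bound Rack1 (1.10 ± 0.30). The share of such genes among the 781 tested is not given here, so this count is not read as a result about them. The higher side of the calls depended on scaling. Scaled by library size only, the split was 3 higher and 7 lower in place of 11 and 5, and the median over all genes moved from 0.16 to -0.04. DESeq2 called 3 genes higher and 0 lower; Rack1 was not among them (1.03, adjusted p = 0.0815), and for Cd7, Ctla2a, Gzmb, S100a4 and S100a6 it gave no adjusted p. Rack1 was at 1035 to 1538 CPM in sham NK cells and at 1889 to 2313 CPM at day 14. In T cells it was lower at day 14, at 1724 to 2087 CPM against 2258 to 2858 CPM in sham.

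**Figure D5:**
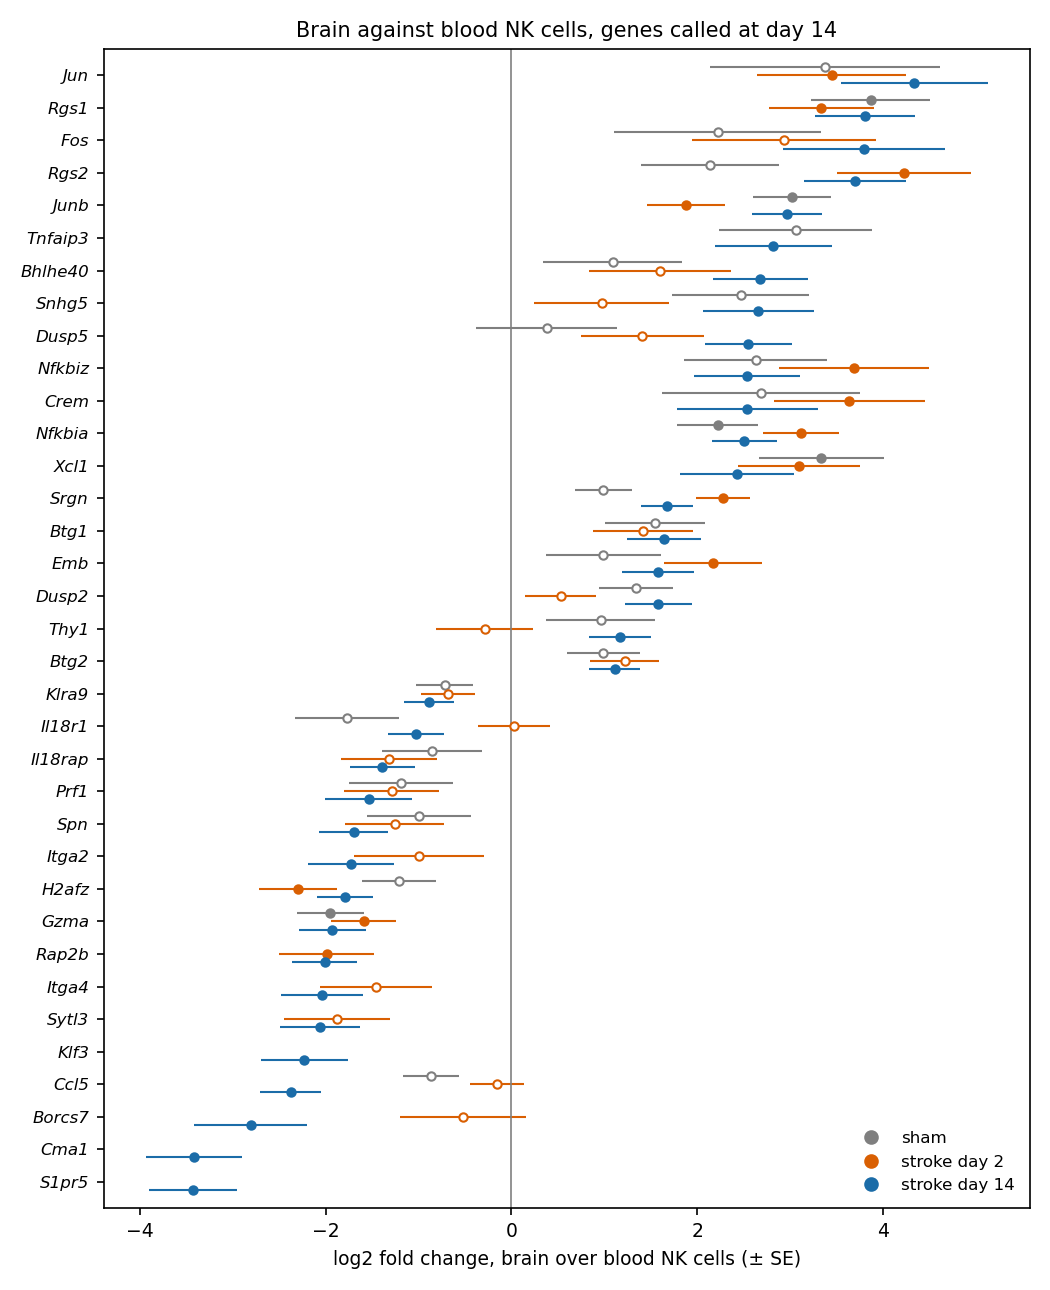
Log2 fold change of brain over blood NK cells (x axis, ± SE) for genes called at day 14 that are described here or chosen by the same rule, in sham, at day 2 and at day 14; filled points passed the test at that time, open points did not, and genes with no or few counts in 1 tissue are not drawn. Of the genes drawn, Rgs1, Junb, Nfkbia and Xcl1 are higher and Gzma lower in brain at all 3 times.

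Brain NK cells were then set against blood NK cells of the same surgery and time, the nearest cells outside the tissue. Tissue cannot be told apart from enzymatic digestion and sorting here, because blood was neither digested nor sorted; the transcription inhibitor actinomycin D was used in both. Brain NK cells held more transcripts of early response genes, Rgs1 and Xcl1 and fewer transcripts of Gzma and of the egress receptor S1pr5. Of 1222 genes, 77 differed at day 14 (50 higher and 27 lower in brain, 6.30%), 41 at day 2 (25 and 16, 3.36%) and 25 in sham (12 and 13, 2.05%). At day 2 DESeq2 called 25 higher and 9 lower. In sham the split was 19 and 9 with library size alone, where the median over all genes was -0.01 in place of -0.13, and 21 and 8 with DESeq2. Counts depended on single libraries: without sham replicate 1 of brain 0 genes were called in sham, so each sham call named below was lost without it, and 14 were called without replicate 2. Without replicate 1 or 3 of brain at day 2 there were 17 and 12 calls, and without blood replicate 1, 2 or 3 of day 14 there were 33, 42 and 40.

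The early response list, genes that cells switch on within minutes of stimulation or stress, was higher in brain. Of 17 genes 14 were tested: 11 were higher in brain at day 14, 7 at day 2 and 4 in sham, and none was lower. The list's median log2 difference was 2.52, 2.41 and 2.22, against 0.04, -0.11 and -0.13 over all genes. Lists and members were chosen with earlier results of these data known, so these values describe the list and are no independent test of it. Junb, an AP-1 subunit gene, was at 1117 ± 450 CPM in brain and 150 ± 30.3 in blood at day 14 (SD, n = 3 each), a difference of 2.97 ± 0.38 (edgeR, adjusted p = 9.20e-05). Nfkbia, which encodes the NF-kB inhibitor IkB alpha, was at 1202 ± 255 against 228 ± 37.8 CPM (2.51 ± 0.35, edgeR, adjusted p = 9.27e-05). Jun was at 470 ± 59.5 against 23.0 ± 17.1 CPM, and Fos at 224 ± 78.4 against 15.4 ± 16.1 CPM. Nr4a1, an orphan nuclear receptor gene induced by antigen receptor signals, had 76 counts in brain and 1 in blood, a ratio of pooled levels of 96.6 with a 95% counting interval of 18.8 to 4324. For Dusp1, a phosphatase gene that turns off MAP kinases, the ratio was 75.3 (14.5 to 3369). Another brain cell type holds Fos, and another blood cell type holds Nr4a1 and Dusp1, at over 10 times the NK level. Each of these genes was higher in all 3 brain libraries than in all blood libraries of that day. Junb, Jun, Nfkbia, Nr4a1 and Dusp1 were called under every one of the 29 alternatives run at day 14. In sham, Junb was at 2682, 747 and 1242 CPM against 115 to 290 CPM in blood.

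The promoters of 4 of these genes are shown because their transcripts were higher in brain and they carry letters of the response elements for NF-kB and CREB, signal-driven transcription factors. They were chosen after the values were seen. Each is the 250 bases before the start site, from RefSeq (GRCm38.p6), written 5′ to 3′ on the strand of the gene, with motif matches in capitals: an NF-kB-like motif (GGG, any 2 bases, TTTCC) for the first 2, TGACGCA for Nr4a1 and TGACGTCA for Dusp1, all searched on both strands. The regions are chr12:55492648-55492897 (minus strand) for Nfkbia, chr10:19015411-19015660 (minus) for Tnfaip3, chr15:101266596-101266845 (plus) for Nr4a1 and chr17:26508473-26508722 (minus) for Dusp1.
Nfkbia: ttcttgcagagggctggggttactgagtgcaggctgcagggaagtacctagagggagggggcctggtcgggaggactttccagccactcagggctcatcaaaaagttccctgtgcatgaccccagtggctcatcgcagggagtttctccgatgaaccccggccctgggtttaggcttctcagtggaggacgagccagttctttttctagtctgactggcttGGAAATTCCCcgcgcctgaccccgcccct
Tnfaip3: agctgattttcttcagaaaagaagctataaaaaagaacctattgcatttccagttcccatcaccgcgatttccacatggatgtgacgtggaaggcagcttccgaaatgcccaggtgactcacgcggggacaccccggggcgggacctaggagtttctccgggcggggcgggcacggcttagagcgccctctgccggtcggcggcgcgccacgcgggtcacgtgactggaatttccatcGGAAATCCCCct
Nr4a1: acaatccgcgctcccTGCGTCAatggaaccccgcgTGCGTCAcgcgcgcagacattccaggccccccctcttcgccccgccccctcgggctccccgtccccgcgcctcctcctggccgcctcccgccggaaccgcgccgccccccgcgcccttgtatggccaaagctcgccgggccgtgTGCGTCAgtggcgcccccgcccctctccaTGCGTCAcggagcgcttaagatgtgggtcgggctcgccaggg
Dusp1: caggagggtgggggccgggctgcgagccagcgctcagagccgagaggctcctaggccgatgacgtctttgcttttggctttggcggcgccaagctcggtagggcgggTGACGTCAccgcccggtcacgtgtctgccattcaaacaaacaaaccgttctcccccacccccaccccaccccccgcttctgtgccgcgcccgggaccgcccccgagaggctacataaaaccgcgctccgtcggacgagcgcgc
The NF-kB-like motif is found in 1.41% of 32851 promoter windows of this length, TGACGCA in 1.75% and TGACGTCA in 1.55%. Of the 11 called early response genes 10 are in the table, with 11 windows, and each motif is in 2 of these windows: the NF-kB-like motif in Nfkbia and Tnfaip3, TGACGCA in Btg1 and Nr4a1, and TGACGTCA in Btg2 and Dusp1. Tnfaip3 has a second window in the table, at chr10:19011964-19012213, with no match. The Nr4a1 window holds 4 matches. A match is a description of these letters, and binding was not measured.

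The called trafficking and residency genes went both ways. Of 13 tested, 2 were higher and 3 lower in brain at day 14, with a median of -0.04, 2 and 2 at day 2, and 1 and 2 in sham. Over all genes tested, 6.30%, 3.36% and 2.05% were called at these times, and the median at day 14 was 0.04. Rgs1, a regulator that blunts chemokine receptor signals, was at 888, 487 and 892 CPM in brain at day 14 and at 83.2, 39.7 and 44.6 CPM in blood (3.81 ± 0.54, edgeR, adjusted p = 9.27e-05). It was also called at day 2 (3.34 ± 0.57; adjusted p = 0.0502 without brain replicate 3) and in sham (3.87 ± 0.64). Rgs2 was higher at day 14 by 3.70 ± 0.55 and at day 2 by 4.23 ± 0.72, and another blood cell type holds it at over 10 times the NK level. Of the early response list, the ubiquitin-editing enzyme gene Tnfaip3 was at 159 ± 55.7 against 21.1 ± 12.3 CPM, and the phosphatase gene Dusp2 was higher by 1.58 ± 0.36; Dusp5, of the same family, was higher by 2.55 ± 0.47. Bhlhe40, a transcription factor gene of activated lymphocytes, stood at 363 ± 171 against 58.6 ± 20.9 CPM.

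Effector genes went both ways between the tissues. Gzma was at 1542, 4528 and 2126 CPM in brain at day 14 and at 11535, 10926 and 10832 CPM in blood (-1.93 ± 0.36, edgeR, adjusted p = 0.00131). It was lower in brain in sham (-1.95 ± 0.36) and at day 2 (-1.59 ± 0.35) as well, and the brain and blood libraries did not overlap at any of the times. The day 2 call was lost without brain replicate 1 (-1.47, adjusted p = 0.0998). Prf1 was lower at day 14 by a log2 difference of -1.54 ± 0.47 (edgeR, adjusted p = 0.0488), a call lost in 18 of 29 alternatives. Gzmb was not called at any time and stood at 1107 ± 502 CPM in brain and 976 ± 235 in blood at day 14. Xcl1 was higher in brain, at 2277, 3202 and 1849 CPM against 564, 515 and 396 CPM at day 14 (2.43 ± 0.61, edgeR, adjusted p = 0.0158), and was called at day 2 (3.10 ± 0.66) and in sham (3.34 ± 0.67). The day 14 call was lost without any of the 3 blood libraries (adjusted p = 0.0745 to 0.135) and the day 2 call without brain replicate 1 (0.168). Ccl4 was higher in brain in sham (2.89 ± 0.62) and at day 2 (2.39 ± 0.60) and was not called at day 14 (0.50 ± 0.55). Its day 2 call was lost without brain replicate 2 or 3 or blood replicate 1, 2 or 3 (adjusted p = 0.0660 to 0.165).

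Ccl5 was called between brain and blood at day 14, and not in sham or at day 2. It was at 10615 ± 775 CPM in brain and 16641 ± 2622 in blood in sham (-0.87 ± 0.30, edgeR, adjusted p = 0.169). At day 2 the brain libraries used were at 11418, 11956 and 22834 CPM, the last of which is marked below as standing apart. Ccl5 was then at 15403 ± 6442 against 16432 ± 3565 CPM (-0.16 ± 0.29, edgeR, adjusted p = 0.850). At day 14 it was at 2768 ± 991 against 15482 ± 1240 CPM (-2.38 ± 0.33, edgeR, adjusted p = 9.27e-05), a call that all 29 alternatives kept. The change from day 2 to day 14 differed between brain and blood by -2.22 ± 0.43 (edgeR, adjusted p = 0.0409), the 1 call of 1222 genes (0.0818%). That call was lost in 21 of 29 alternatives, among them 16 of the 20 that leave out a library, with adjusted p values up to 0.685 and values of -2.42 to -1.82.

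Of 9 maturation genes tested at day 14, Emb and Thy1 were higher in brain and Spn, Cma1 and Itga2 lower, with a median of -0.47. At day 2 Emb was higher and Cma1 lower (median -1.0), and in sham Cd7 was higher and Cma1 and Itga2 lower (median 0.44, also with 2 members set at their bounds). Over all genes tested, 6.30%, 3.36% and 2.05% were called at day 14, at day 2 and in sham, with medians of 0.04, -0.11 and -0.13. Among trafficking genes, S1pr5, the receptor by which NK cells leave tissues, was at 30.5, 44.7 and 0 CPM in brain at day 14 and at 411, 349 and 318 CPM in blood (-3.43 ± 0.47, edgeR, adjusted p = 9.27e-05), and was called under all 29 alternatives at day 14. With 1 count in brain, the ratio of brain to blood was 0.0692 at day 2 (95% counting interval 0.00171 to 0.401) and 0.0816 in sham (0.00206 to 0.468); both were called, and the day 2 call was lost without brain replicate 1 or 3 (adjusted p = 0.114 and 0.0686). Itga4, the alpha chain of the VLA-4 integrin, was lower at day 14 by -2.04 ± 0.44, and Itga2, the CD49b gene, by -1.73 ± 0.46. Cma1, a chymase gene, was at 20.3 ± 22.6 against 274 ± 25.0 CPM at day 14, and Spn, the CD43 gene of mature NK cells, at 134 ± 46.6 against 492 ± 38.5 CPM. The interleukin 18 receptor genes Il18r1 and Il18rap were lower by -1.03 ± 0.30 and -1.39 ± 0.35, and the first was lost in 16 of 29 alternatives.

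In sham several transcripts that blood NK cells held had no count in brain NK cells, so that their levels are known only to lie below a limit. Klra7 was 0 in brain and 834 ± 147 CPM in blood (SD, n = 4), at least 7.48-fold lower. Klra3, another Ly49 gene, was at least 5.48-fold lower, Itga2 at least 4.42-fold, Eomes at least 4.06-fold, Cma1 at least 2.37-fold and Tbx21 at least 1.91-fold. All were called (edgeR, adjusted p = 0.00557 to 0.0482), and Cma1 was lost in 19 of 27 alternatives. At day 14 Eomes was at 302 ± 142 CPM in brain and 450 ± 73.5 in blood, and Tbx21 at 156 ± 9.25 and 218 ± 55.6 CPM, with no call. The median of the 9 tested genes listed as inhibitory receptors, a list that also holds the activating Klra4 and Klra8, was -6.37 in sham. It was -0.96 with 5 genes that had no count in brain set at their bounds. Over all genes tested the median in sham was -0.13. The same sham cells held the ILC1 marker sum of 975 ± 264 CPM given above, with 0 counts of Eomes and of Tbx21. Of the ILC1 markers, only Tnfsf10 was highest in NK cells among the annotated types of young brain. Il7r was at 779 CPM in T cells and 79.7 CPM in NK cells, and Cxcr6 at 364 and 104 CPM. Whether the sham cells include ILC1 was not tested.

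Of the NK cell markers, Nkg7, Klrd1, Klrk1, Klrb1c and Ncr1 were not called between the tissues at any time, while others, such as Gzma, were called. Nkg7 differed by -0.58 ± 0.30 at day 14, -0.22 ± 0.29 at day 2 and -0.35 ± 0.30 in sham. Ncr1 differed by -1.30 ± 0.41 at day 14 (edgeR, adjusted p = 0.0654), with all brain libraries below all blood libraries. The list of activating receptors and adaptors had no call among 11 genes tested at any time, with medians of -0.38, 0.02 and -0.40. Over all genes tested the medians were 0.04, -0.11 and -0.13, with 6.30%, 3.36% and 2.05% called.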

How the data were processed

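Drop-seq libraries of brain and blood were deposited with a cell annotation per library. The values the authors made and deposited are estimated counts per gene and cell, nearly all of them fractional; the step that made them so, and the aligner, are not given in the sources used here. The mm10 build and Seurat are credited to the submitters' processing notes. Mitochondrial percent per cell was taken from the deposited annotation as a percent value.

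NK cells were the cells the authors annotated as NK; their counts were summed per library and rounded to whole counts. Brain NK libraries used held 5176 to 111920 counts (median cell 274 to 879) and blood ones 24710 to 132766, and this depth limits low genes. Libraries with at least 10 NK cells were fitted with edgeR 4.0.16 (TMM, filterByExpr, quasi-likelihood test, Benjamini-Hochberg adjusted p under 0.05; R 4.3.3), one fit per family of comparisons over all its groups. DESeq2 1.42.0 was an alternative. Shares were tested by edgeR on cell counts with total cells as library size, and by exact two-sided permutation tests. The edgeR scripts were tested on simulated data, with the spread between libraries set to the same value for every gene and not taken from these libraries. Of genes changed 4-fold, 124 of 128 were recovered for day 14 against day 2 and 175 of 181 for brain against blood at day 14. For the NK and T cell difference, 75 of 176 were recovered. These shares test the scripts and do not say how many 4-fold changes would be found in the real counts. Doublets were not called; leaving out cells over 2.5 times their library's median counts was an alternative.

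Named genes were 16 fixed by name, the called genes of 12 lists, per comparison up to 10 called genes each way by fold (mean of at least 50 CPM, groups not overlapping; predicted, mitochondrial, ribosomal, haemoglobin, immunoglobulin and T cell receptor genes, and genes another type holds at over 10 times the NK level, left out), and the 5 smallest p where under 10 were called. Members and lists were chosen with earlier results of these data known. Some results are not reported here.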

Additional observations from a re-analysis of the deposited data

Results flagged for a closer look

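A library was marked where its gap to the nearest of its group exceeded Dixon's 95% critical share of the group's range, with 4 libraries a group. Chance flags about 1 in 20 groups, and the number of groups screened is not given here, so the marks cannot be set against chance. The brain groups of 4 include the libraries of under 10 NK cells. In brain, the marked libraries were sham replicate 1 at 15.3% NK cells of lymphocytes, and day 2 replicate 3 at 22834 CPM of Ccl5. In blood NK cells, 1 sham library stood apart at 372 CPM of Efr3a, 1 at 246 CPM of Emb, 1 at 290 CPM of Junb and 1 at 19.5 CPM of Nr4a1. At day 2 of blood, 1 library stood apart at 2165 CPM of Gzmb, 1 at 11.1 CPM of Nr4a1 and 1 at 0 CPM of Snhg5.

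Several changes differed between tissues or cell types by the test of the difference itself (edgeR, adjusted p under 0.05). The change of Ccl5 from day 2 to day 14 was lower in brain than in blood NK cells by a log2 difference of -2.22. Between NK and T cells of the same brain libraries, the change from day 2 to day 14 differed by -1.80 for Ccl5, 2.37 for Gzma and 0.89 for the ribosomal protein gene Rps19. The change from sham to day 14 differed by -1.11 for Ccl5, -2.53 for Cd7, 1.94 for Ctla2a, -1.91 for Gzmb, 1.10 for Rack1, -2.18 for S100a4 and -1.60 for S100a6.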

How the results depend on the processing

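Counts of called genes moved with the setting, and the cause was not tested. Day 14 against sham (0 genes) gave 2 with DESeq2, 8 with no filter and 1 with the mitochondrial level as a term; leaving out libraries gave 0. Day 14 against day 2 (1 gene) gave 2 with no filter, Lyz2 (lower, a gene of macrophages) and Gzmc (higher) and not Ccl5, and 0 with at least 20 cells, without NK cells with T cell receptor or CD3 counts, without cells over 2.5 times the median, and with only the compared groups; leaving out libraries gave 0 to 1. Brain against blood at day 14 (77) gave 258 with no filter and 33 to 114 without single libraries. At day 2 (41) it gave 18 without cells with receptor counts, 27 without large cells and 12 to 44 without single libraries. In sham (25) it gave 40 with no filter, 7 without large cells and 0 to 34 without single libraries. The difference of changes between brain and blood (1) gave 0 with no filter, with at least 20 cells and without large cells, and 0 to 1 without single libraries. NK against T cells from day 2 to day 14 (3) gave 1 with DESeq2, 21 with no filter, 6 with library size alone, 24 with at least 20 cells, 44 without cells with receptor counts, 18 without large cells, 0 without the library term and 2 to 7 without single libraries. From sham to day 14 (16) it gave 3, 37, 10 with library size alone, 29 with at least 5 cells, 0 without the library term and 5 to 26.

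Same-numbered libraries had correlations from -0.366 to 0.827 and differently numbered ones from -0.782 to 0.586. The main fits did not take the numbers to pair samples. Between day 2 and day 14, the same-numbered pairs of replicates 2 and 3 had the highest correlations, 0.558 and 0.827. Pairing is therefore not excluded. With a replicate block the counts were 0 for day 2 against sham, 1 for day 14 against day 2, 61, 23 and 15 for brain against blood at day 14, day 2 and sham, and 0 for the difference of changes. The NK share at day 14 against day 2 was 2.52 with the replicate block and was not called (edgeR, adjusted p = 0.0650).

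The log2 share of day 2 against sham (0.26) was -1.95 among leukocytes, 0.76 among lymphocytes, -0.23 among cells of at least 800 counts, and -0.13 to 0.64 without single libraries, the lowest without day 2 replicate 3. Day 14 against sham (2.62) was 0.86 among leukocytes, 2.96 among cells of at least 800 counts (not called, adjusted p = 0.0771), 2.61 as the log2 ratio of the mean shares and 2.37 to 2.99 without single libraries. Day 14 against day 2 (2.35) was 0.34 among lymphocytes, 3.19 among cells of at least 800 counts (not called, 0.0744), 2.35 as the log2 ratio of the mean shares and 1.97 to 2.75 without single libraries. The aged difference was -1.60 to -0.0422 without single libraries. Ccl5 in brain against blood at day 2 was -0.62 to 0.07 without single libraries, with 0.07 without brain day 2 replicate 2. Aged against young expression was not run, because the aged day 2 stroke libraries held 1, 6 and 2 NK cells, and settings with at least 20 cells or without cells with receptor counts could not be fitted against sham.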

Other observations

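The deposited annotation divides the 484 young brain NK cells into 425 coded NK1 and 59 coded NK2, names whose meaning is not given in the sources used here. NK2 cells were 0 of 18, 2 of 14, 11 of 21 and 1 of 9 NK cells in the sham libraries, 2 of 24, 3 of 15, 8 of 31 and 0 of 3 at day 2, and 0 of 8, 8 of 104, 11 of 102 and 13 of 135 at day 14. Replicate 3 thus gave 11 of the 14 NK2 cells of sham and 8 of the 13 of day 2, and no share is given per group. The chemokine gene Ccl3 was at 1301 CPM in NK2 and 244 CPM in NK1 cells, a ratio of 5.33, and Ccl4 had a ratio of 2.84. These ratios pool groups of unlike make-up, since 317 of the 425 NK1 cells came from day 14. Within groups, Ccl3 was at 1345 CPM in NK2 and 617 in NK1 cells in sham, 1311 and 535 at day 2, and 1258 and 163 at day 14, from 6 to 42 counts each. Ccl4 was at 4036 and 2005 CPM in sham, 2295 and 2568 at day 2, and 3471 and 843 at day 14. Tnfrsf9, which encodes the costimulatory receptor 4-1BB, and the nucleolar protein genes Nolc1 and Nop58 were also higher in NK2, with ratios of 3.78, 3.89 and 3.40. These are descriptions of clusters made on the same cells, and were not tested. All 44 aged NK cells were coded NK1.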
